A study of Arabidopsis thaliana with 2 samples.

Results

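The regions described here are the 275 peaks of the transcription factor ERF115 that the authors placed in the intergenic 5' position of a gene. They are 44.9% (95% exact binomial interval 40.9 to 49.0%) of the 612 peaks deposited. Members were every row of the authors' annotated peak table with that location label, joined by peak name to the peak list for start, end and score. The label was taken to mean upstream of the assigned gene. This reading was not checked against gene strand, and a broad peak with this label may still reach into a gene. Peaks were chosen by label alone, so the rule used neither scores nor widths nor gene identities.

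The study crosslinked Arabidopsis thaliana PSB-D suspension cells, a dark-grown culture of the Landsberg erecta ecotype kept in medium with an auxin (NAA) and a cytokinin (kinetin). One culture, 35S::ERF115-HBH, made ERF115 joined to the HBH tag from the 35S promoter, a viral promoter active in most plant cells, so ERF115 was not at its native level or in its native cell type. The mock was wild-type culture without the tagged protein. Both were fixed with 0.75% formaldehyde for 10 minutes, 2 days after subculturing, and taken through purification on nickel and then streptavidin beads. There was 1 library of each kind. The peak files belong to the ERF115-HBH library, and the mock's own values and the read depth were not analysed here. Peak positions carry no expression, so the cell type label could not be checked against marker genes.

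ERF115 belongs to the AP2/ERF family, whose members bind short GC-rich or dehydration-type elements through the AP2 domain. In roots ERF115 is known for driving division of quiescent centre cells and for replenishing damaged stem cells. Its known link to phytosulfokine, a sulfated peptide hormone, runs through PSK5. The stretch before a gene is where such a factor would usually meet its control elements. The series design names the question as which genes ERF115 binds.

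Intergenic 5' peaks lay beside genes of many kinds, and transcription factor, hormone and wall genes were among them. The 275 peaks were assigned to 274 loci, because XTH30, which encodes a xyloglucan-modifying wall enzyme, had 2 of them. Of these loci 256 were nuclear protein-coding genes, or 0.933% of the 27444 in the gene name table. The other 18 loci were 3 microRNA genes, 6 pseudogenes and 2 transcribed pseudogenes, 2 other non-coding RNA genes, 1 tRNA gene and 4 loci without an entry in the table. A symbol stood beside 128 of the 256 protein-coding genes (50%, 43.7 to 56.3%). The same share was 40.3% (34.8 to 46.0%) at protein-coding genes of all other peaks and 37.8% over all nuclear protein-coding genes. Most class members were found by a symbol, and 1.23% of all protein-coding genes with a symbol had an intergenic 5' peak. Counts by gene class are read against that share. Peaks of 1 library are not replicates of ERF115 binding, so sets of peaks are set side by side with no test, and the intervals printed beside medians and shares cover counting error only.

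MACS, the authors' peak caller, gives each peak 10 times −log10 of its p-value as its score, so that 100 stands for p = 1e-10. Among intergenic 5' peaks the lowest score was 50.01 and the highest 537.85, with a median of 78.05 and quartiles of 60.88 and 111.18. The lowest scores end just above 50, a p-value of 1e-05. Of the 275 peaks 39 (14.2%) scored under 55. At the other end 84 peaks (30.5%, 25.2 to 36.4%) scored at least 100 and 17 scored at least 200.

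The highest scores belonged to a mixture of characterised and unnamed genes. AT5G49560 had the top peak of the whole list, 537.85, at chromosome 5, 20109979 to 20112455. The second, emb2737, a gene named for its embryo-defective mutant, scored 314.2 at chromosome 5, 21864347 to 21865802. The drop from first to second is the widest step in the ranking of these peaks. WRKY60, WRKY18 and WRKY26 followed with 310.2, 297.48 and 287.33, and the last of the 20 highest was EXPA8 with 191.95. These 20 ranked within the first 39 of the 612 peaks. Named genes among them, beside those above, were LUT1 with 237.1 and MIR168a with 197.98. LUT1 is a cytochrome P450 of lutein synthesis, and the microRNA of MIR168a targets the small-RNA effector ARGONAUTE1. The other 13 of the 20 carry no symbol in the table. After AT5G49560 these were, in order of score, AT4G37480, AT3G24120, AT3G60480, AT3G19870, AT2G41800, AT3G04220, AT3G61820, AT3G59640, AT2G45360, AT5G67290, AT4G39700 and AT1G78895. Their scores fell from 285.51 to 198.95.

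**Figure D1:**
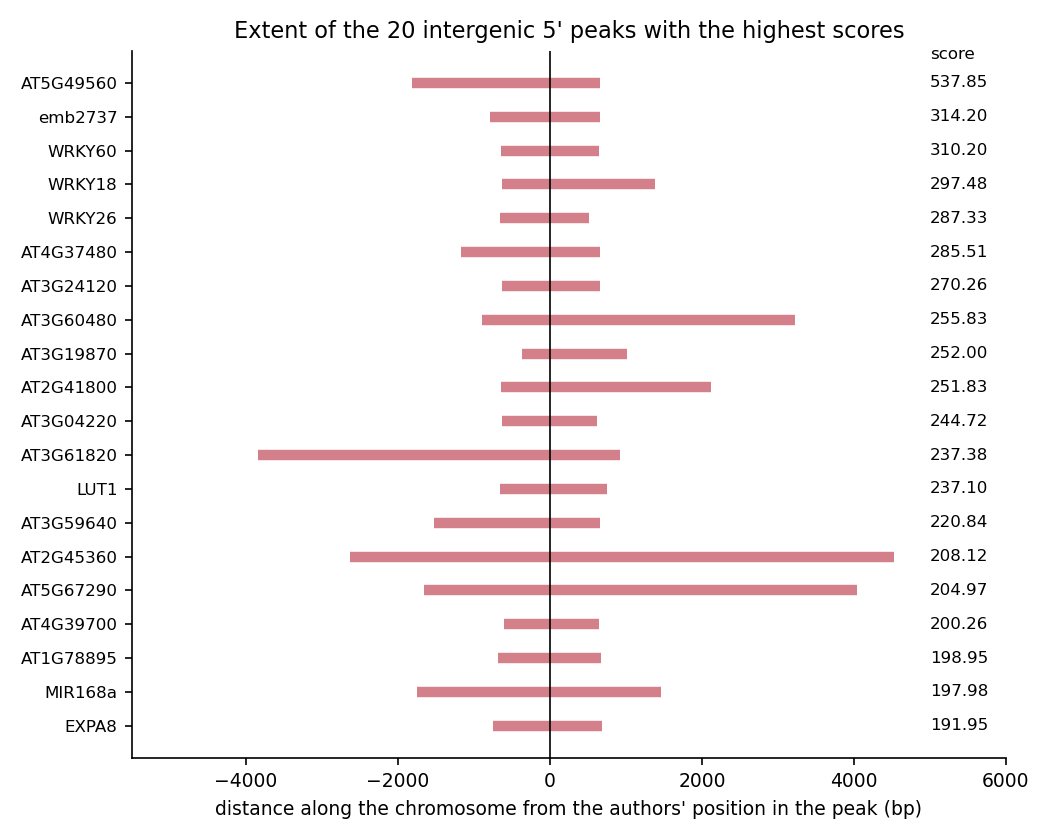
Extent of the 20 intergenic 5' peaks with the highest scores. Each bar runs from the start to the end of a peak, in bp along the chromosome, around the position the authors gave inside it (vertical line), and the score stands at the right; WRKY60, WRKY26 and AT3G24120 are short and nearly symmetric, while AT2G45360 and AT5G67290 spread over 7160 and 5700 bp.

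By count, transcription factors gave more members than any other role, and with 669 genes they were also the largest. In the 12 transcription factor classes taken by gene name, 19 genes had an intergenic 5' peak (2.84%, 1.72 to 4.40%), and 16 had a peak with another label. The classes and their members were chosen with earlier results of these data known. Scores of the 19 genes lay between 50.38 and 310.2, and their median of 72.94 was close to the median over all intergenic 5' peaks.

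WRKY proteins, which bind W-box elements and act in defence and stress responses, had the highest scores of any class with several members. Intergenic 5' peaks lay at 4 of the 72 WRKY genes (5.56%, 1.53 to 13.6%). WRKY18 and WRKY60 are related proteins that modulate responses to pathogens and abscisic acid, and WRKY26 acts in heat tolerance. WRKY66 scored 181.83. Another 3 WRKY genes had peaks with other labels, WRKY57 with 133.98, WRKY15 with 125.44 and WRKY6 with 60.6. Each of the 4 intergenic 5' scores was above each of these 3. The WRKY26 peak was also among the narrow ones, at 1165 bp, and those of WRKY66 and WRKY60 measured 1252 and 1283 bp.

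AP2/ERF genes, the family of ERF115 itself, gave more members than any other class. Intergenic 5' peaks lay at 8 of 63 genes with such a name (12.7%, 5.65 to 23.5%). The highest score, 139.04, was at AT1G78080, named RAP2.4 in the table and WIND1 by the authors, a factor known for wound-induced dedifferentiation and callus formation. AT5G51190 (ERF105) scored 101.34 and ERF1, which acts where ethylene and jasmonate signals meet, 78.98. The remaining scores were low: 65.15 at ERF-1, 60.33 at CEJ1, 59.02 at ERF10, 54.61 at RAP2.9 and 51.95 at TOE3. CEJ1 and RAP2.9, also called DEAR1 and DEAR5, belong to the DREB branch and carry an EAR repression motif, and TOE3 belongs to the AP2 branch. All 8 scores lay below the lowest of the 4 intergenic 5' WRKY scores. Other labels held peaks of 5 AP2/ERF genes, ERF12, ERF6, ERF5, CBF1 and, with a second peak, CEJ1, at scores from 50.74 to 139.6. Scores with and without the intergenic 5' label therefore covered much the same range in this family.

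Among NAC factors 3 of 100 genes (3%, 0.623 to 8.52%) had an intergenic 5' peak. NAC096 scored 135.66, NAC004 69.64 and NAC062, a membrane-bound factor released under stress, 57.65. Of 53 bZIP and TGA genes 2 had one, BZIP25 with 154.39 and TGA4, a factor of nitrate and salicylic acid responses, with 71.49. The GRAS class gave 1 of 18 genes by name, RGL1, a DELLA repressor of gibberellin responses, with 72.94. With other labels, GAI of this class scored 180.56 and AT5G41920 scored 63.75. MYB gave 1 of 125, MYB78, with 50.38, near the bottom of the list. No intergenic 5' peak was assigned to any gene of the bHLH, homeobox, LBD, zinc finger, heat shock factor or IAA and ARF name classes. Their sizes were 22, 73, 40, 28, 21 and 54 genes, and at 1.23% such classes would hold few peaks or none. Genes of these families under other names, or with no symbol, are not counted.

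Other nuclear regulators were named after their values were seen. A pair of Mediator subunits, the complex that links transcription factors to RNA polymerase, had intergenic 5' peaks, MED21 with 71.07 and PFT1 (MED25) with 61.91. They are 2 of 17 Mediator genes by name. Of 29 AT-hook genes 2 had one, AT4G17950 (AHL13) with 98.25 and AGF2 (AHL15) with 50.54. Further examples, not a full set of their families, were NF-YB2 with 89.43 and the MADS-box gene AGL43 with 84.84. The Dof factor HCA2, linked to cambial divisions, had 73.59, and HRS1, linked to phosphate and nitrate sensing in roots, had 53.55. GRF4, a growth-regulating factor, and RR20, a cytokinin-type response regulator, scored 52.93 and 52.89. Apart from AHL13, NF-YB2 and AGL43 these regulators scored below the median of intergenic 5' peaks. With another label, intergenic 3', the AT-hook gene AT5G49700 scored 253.8.

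Hormone genes with an intergenic 5' peak spread over several pathways, at 7 of 170 genes in 8 name classes (4.12%, 1.67 to 8.30%). ACS2, an ACC synthase of the ethylene synthesis pathway, scored 110.85. JAZ8, a repressor of jasmonate signalling, scored 117.75, the highest of the 7, at chromosome 1, 10595383 to 10596676. GA2OX6, which inactivates gibberellin, scored 106.81. AT5G01830 is counted with the auxin-induced SAUR class only by its symbol in the gene name table, SAUR21. The authors gave this locus no symbol, and its family was not checked. It scored 97.11 and had a second peak, labelled coding 3', with 50.78. PYL4, an abscisic acid receptor, scored 81.56. No gene of the cytokinin oxidase class (7 genes) or of the PIN and AFB class (14 genes) had an intergenic 5' peak. At 1.23% such small classes would hold few peaks or none. With another label, coding 3', AFB2 scored 440.95.

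PSK5 was the 1 of 6 phytosulfokine precursor genes with a peak. Its peak at chromosome 5, 26350073 to 26351359, scored 59.13 in the authors' list, rank 218 of the 275 and rank 483 of 612. The position given inside it was 26350733, 1287 bp being the full width. It lay in the low part of the range, above 50.01 and below the median of 78.05. HLS1, an ethylene-response gene of the apical hook named after its value was seen, scored 86.87.

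Receptor, calcium-linked and MAPK cascade kinases, taken by gene name, together gave 6 of 186 genes (3.23%, 1.19 to 6.89%). Kinase genes without such a name are not counted. SRF3, a STRUBBELIG-family receptor kinase, had the highest score, 178.45. The cysteine-rich receptor kinases CRK3 and CRK42 scored 84.86 and 79.69. THE1, a receptor kinase that monitors cell wall integrity, scored 82.86, and PEPR1, a receptor of danger peptides, scored 51.54. CPK9, a calcium-dependent kinase, scored 77.27. None of the 51 MAPK cascade genes among them had an intergenic 5' peak, and 3 of them had a peak with another label. At 1.23% a class of that size would hold few peaks or none. Of the ubiquitin ligase names 1 of 29 had an intergenic 5' peak, the F-box gene EDL3, with 68.8. With another label, coding 3', WAVH1 scored 290.37.

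Cell wall genes had 5 of 140 members with an intergenic 5' peak (3.57%, 1.17 to 8.14%). Expansins, which loosen walls, gave EXPA8 with 191.95 and EXP3 with 118.02, while the expansins with other labels, EXPA4 and EXPB3, scored 64.27 and 52.72. The class III peroxidases AT5G64120 (PRX71) and AT2G41480 (PRX25), enzymes that can cross-link or loosen wall polymers, scored 166.88 and 159.59. Both peroxidase peaks were narrow, at 1262 and 1181 bp. The peaks at XTH30 scored 72.49 and 56.85 and lay 296 bp apart, at chromosome 1, 11571695 to 11574407 and 11574704 to 11579353. No pectin methylesterase (15 genes) or cellulose synthase-like gene (42 genes) had an intergenic 5' peak. At 1.23% classes of these sizes would hold few peaks or none.

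**Figure D2:**
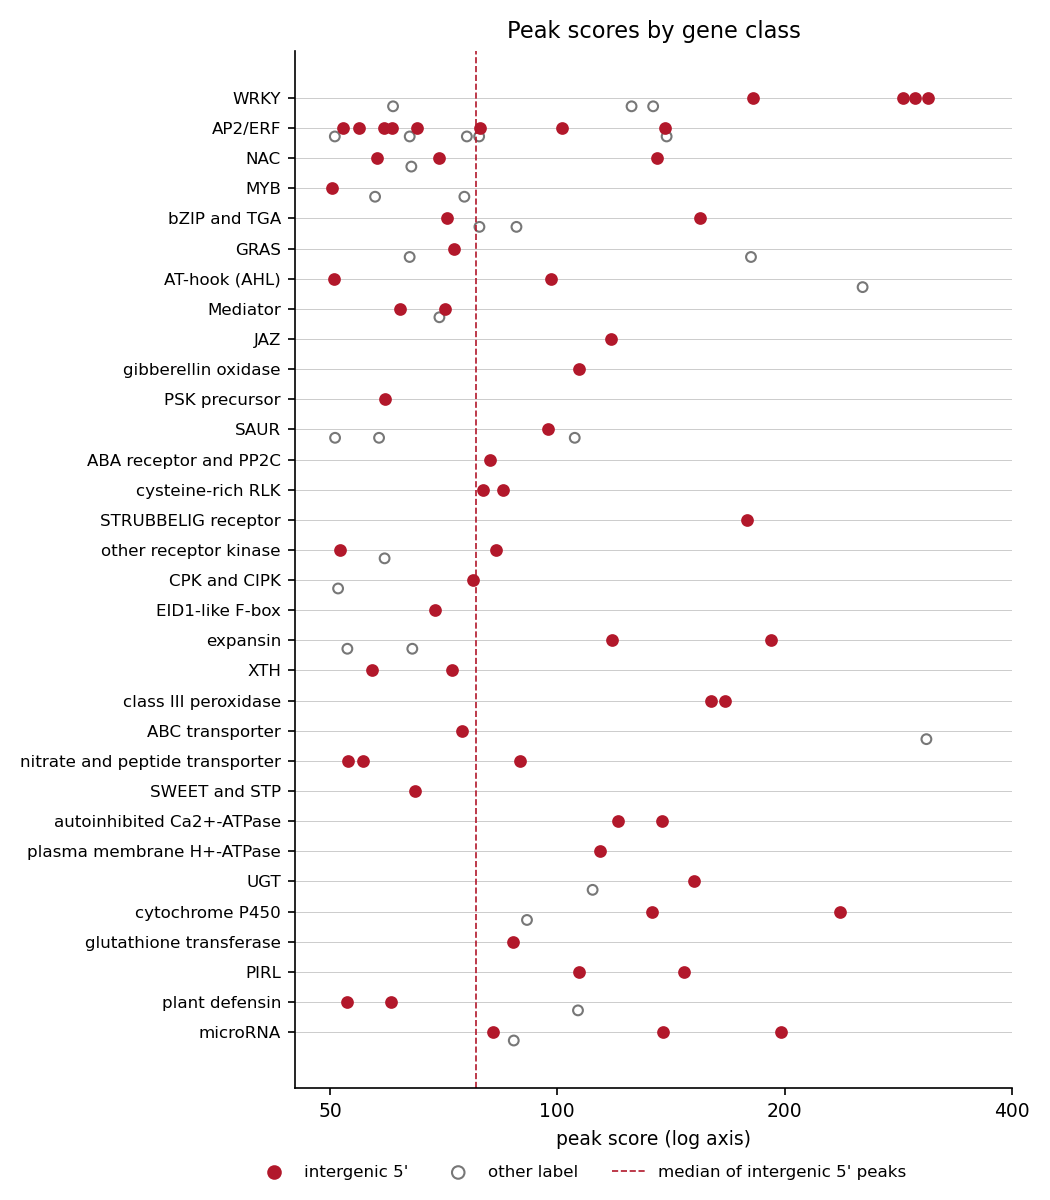
Peak scores on a log axis for the gene classes described here with at least 1 intergenic 5' peak. Filled points are intergenic 5' peaks, open points are peaks of the same class with another label, drawn slightly lower, and the dashed line is the median of intergenic 5' peaks, 78.05; the 4 filled WRKY points lie between 181.83 and 310.2, right of all AP2/ERF points.

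Transport genes gave 8 of 290 (2.76%, 1.20 to 5.36%). The autoinhibited calcium pumps AT3G63380 (ACA12) and ACA10 scored 137.45 and 120.47, and HA2, a plasma membrane proton pump that acidifies the wall, scored 113.85. These pump classes, with 2 of 9 and 1 of 11 genes, were added after values were seen, so their scores are not compared with those of the other transport classes. Pump genes are also counted in the 8 of 290 and raise that share, so it is not read against 1.23%. AT1G59740 (NPF4.3) scored 89.31, the ABC transporter PEN3 74.82 and the sugar carrier STP4 64.72. The peptide transporter PTR1 and the glucosinolate transporter GTR2 had 55.24 and 52.8. With another label, coding 3', the ABC transporter ABCG43 scored 308.32. Outside these classes, and chosen by their values, were the potassium antiporter KEA4 with 119.74, the amino acid carriers LHT1 with 89.45 and CAT6 with 51.06, and the anion channel SLAH2 with 65.07.

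Metabolic gene classes stood near the background, with 4 of 353 genes (1.13%, 0.310 to 2.88%). LUT1 and CYP71B32, with 133.58, were 2 of 240 cytochrome P450 genes, UGT73D1 scored 151.96 and GSTU13 87.33. MicroRNA genes gave 3 of 326, or 0.92%. After MIR168a these were MIR158a with 138.16 and MIR161 with 82.18. All 7 of these scores were above the median of intergenic 5' peaks.

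Defence genes with an intergenic 5' peak were picked by hand after the values were seen. EXO70B1, an exocyst subunit, scored 176.66. NHL2 scored 104.04, and EDS1, a hub of resistance signalling, scored 88.79. ACD6 and RIN4, regulators of immune responses, scored 70.28 and 67.85. The defensins PDF1.4 and PDF2.1 scored 60.14 and 52.69, and the chitinase EP3 50.94. Of 13 defensin genes by name these were the 2 with an intergenic 5' peak. Also named after their values were seen, but not counted as defence genes, were PIRL2 and PIRL6, of a family of 9 leucine-rich repeat proteins. They scored 147.05 and 106.73.

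The authors' mark TP, which the sources used here do not define, stood beside 15 intergenic 5' peaks. They are 15 of the 22 marked peaks and 5.45% (3.08 to 8.84%) of intergenic 5' peaks, while 7 of the 337 other peaks were marked (2.08%, 0.839 to 4.23%). The mark was not particular to this label, since 4 of the 64 coding 3' peaks carried it (6.25%, 1.73 to 15.2%). CEJ1 carried it at its intergenic 5' peak and at its coding 3' peak. The marked peaks had scores from 57.64 to 270.26, with a median of 88.67, and 7 scored at least 100. No marked peak was wider than 3518 bp, and their median width was 1482 bp (1364 to 1940 bp), against 1841.5 bp (1679 to 2039 bp) for the 260 without the mark, with overlapping intervals. Marked genes with a symbol were UGT73D1, EXP3, ARA12, PAHX, TGA4, CEJ1 and PSK5. ARA12, a subtilisin-type protease, scored 88.67 and PAHX 73.24. The marked genes without a symbol were AT3G24120, AT4G28350, AT1G56140, AT1G34300, AT5G02890, AT4G39270, AT1G32700 and AT1G10990, with scores of 270.26, 169.94, 157.32, 122.71, 117.23, 67.41, 67.07 and 57.64.

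Intergenic 5' peaks scored like the other peaks. The median of 78.05 (95% interval from order statistics 72.49 to 82.84) compares with 75.37 (69.39 to 89.05) for 117 intergenic 3' peaks and 81.24 (75.13 to 88.02) for 220 peaks labelled inside a gene. The intervals overlap, and the shares scoring at least 100 were 30.5%, 29.9% and 33.2%. The intergenic 5' share hardly moved down the ranking: it was 45.0% among ranks 1 to 20, 46.3% among 21 to 102, and between 42.2% and 50% in each later stretch of 102 peaks. The highest of these, 50% (39.9 to 60.1%), was in the lowest-scoring stretch.

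Widths also overlapped between the sets. The median of intergenic 5' peaks was 1831 bp (1668 to 1924 bp, quartiles 1355 and 2727.5 bp), against 1871 bp (1657 to 2436 bp) for intergenic 3' peaks and 2066 bp (1802 to 2260 bp) inside genes. Among the labels inside genes, the 49 peaks in a 5' UTR had a median of 1682 bp (1445 to 2122 bp). Peaks under 1500 bp made up 37.5% of intergenic 5', 36.8% of intergenic 3' and 25.5% of gene peaks, and 38.8% of those in a 5' UTR. Across the 275 peaks, score and width were nearly unrelated, with a Spearman rho of 0.04; all points share 1 library. Together the 275 peaks covered 618.1 kb of the 1449.6 kb under all peaks.

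**Figure D3:**
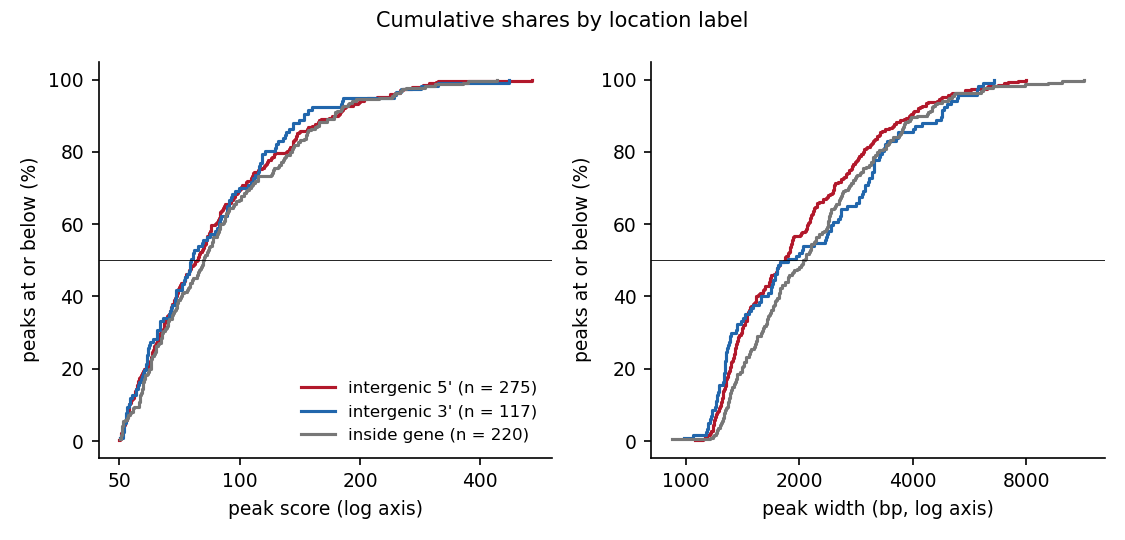
Cumulative share of peaks (%) by score (left, log axis) and by width in bp (right, log axis) for the 3 sets of location labels. The score curves run together, with medians of 78.05, 75.37 and 81.24, and the width curve of peaks inside genes lies to the right of the other two at narrow widths.

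The widest intergenic 5' peaks were on chromosome 2. AT2G22880 (7976 bp), AT2G21188 (7615 bp), AT2G45360 (7160 bp), the mitochondrial electron-transfer gene ETFQO (7005 bp) and AT2G23060 (6735 bp) were the 5 widest, all on that chromosome. Of the 7 widest, 6 were on it. Their scores ranged from 51.67 at ETFQO to 208.12 at AT2G45360, so wide peaks were found at both ends of the score range. On chromosome 2, 8 of 38 intergenic 5' peaks exceeded 4000 bp (21.1%), and so did 8 of 38 other peaks there. Over the remaining chromosomes 18 of 237 intergenic 5' peaks did (7.59%). Chromosome 4 had no intergenic 5' peak over 4000 bp among 38, and its median width was 1512 bp. The 5 narrowest were AT4G08602 (1061 bp), AT5G28926 (1113 bp), VAR3 (1128 bp), AT4G27450 (1140 bp) and ACD6 (1142 bp), none above a score of 100.07.

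**Figure D4:**
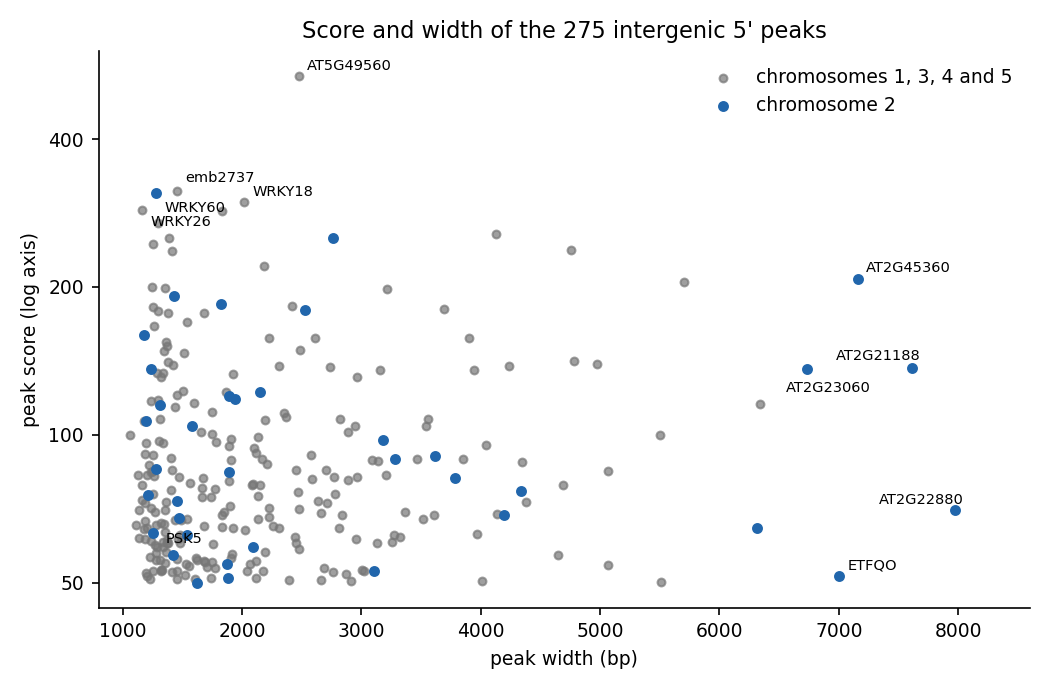
Score (log axis) against width in bp of the 275 intergenic 5' peaks, with chromosome 2 in blue and the other chromosomes in grey. The 5 widest, from 6735 to 7976 bp, are all blue, and the labelled peaks with the highest scores are at most 2477 bp wide.

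The position that the authors gave lay inside all 275 peaks. It was a median of 172.5 bp from the midpoint (quartiles 43.25 and 470.75 bp), against 247.5 bp in intergenic 3' peaks and 227.0 bp in peaks inside genes. From the nearer end of the peak it was a median of 644 bp away and never under 337 bp. For 194 peaks (70.5%) that distance was between 500 and 800 bp, and for 71.8% of the other peaks. In the plot of the 20 highest peaks, most of the narrow ones were close to symmetric around this position, but that of AT3G19870, 1387 bp wide, had it 366 bp from one end. Most wide ones reached further to a single side.

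Chromosomes differed little in the share of their peaks with this label. It was 49.0% (40.5 to 57.4%) on chromosome 1, 50% (38.3 to 61.7%) on 2, 41.9% (34.4 to 49.6%) on 3, 51.4% (39.4 to 63.1%) on 4 and 38.8% (30.9 to 47.2%) on 5. Each interval contains the overall 44.9%. Chromosome 3 held 72 of the 275 peaks (26.2%, 21.1 to 31.8%) and has 19.9% of nuclear protein-coding genes; of all other peaks it held 29.7% (24.8 to 34.9%). Median scores of intergenic 5' peaks ran from 68.84 on chromosome 4 to 87.18 on chromosome 2, with overlapping intervals (61.76 to 86.87 and 70.21 to 118.02).

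**Figure D5:**
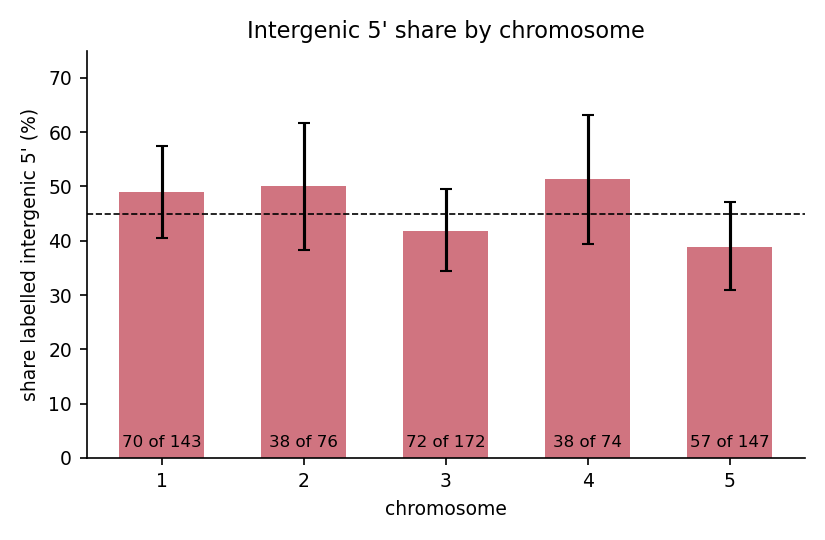
Share of each chromosome's peaks labelled intergenic 5' (%), with 95% exact binomial intervals and the counts at the foot of each bar. The dashed line is the share over all peaks, 44.9%, and every interval includes it.

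Some intergenic 5' peaks stood next to each other, and the genes of such runs and pairs are named here after their values were seen. Within 20 kb of another peak of any label were 91 of 275 (33.1%), and 37.7% of the other peaks were as near to one. In 41 cases the neighbour within 20 kb was itself an intergenic 5' peak, and these formed 19 runs. The longest run held AT3G60480, AT3G60520, AT3G60540 and the P-type cyclin gene CYCP3;2 in 31.7 kb of chromosome 3, with scores of 255.83, 121.98, 81.56 and 96.26. WRKY18 (297.48) and ENP (183.06), the latter also called NPY1 and known from auxin-dependent organ formation, lay in 15.5 kb of chromosome 4. LUT1 and UGT73D1 lay in 7.91 kb of chromosome 3.

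In 5 cases the pair of loci were direct neighbours in the order of protein-coding genes: AT1G72500 with AT1G72510, AT3G60540 with CYCP3;2, AT5G46580 with NAC096, AT3G13000 with AT3G13010, and the prohibitin gene PHB3 with LHT1. The peaks of the first pair were 26 bp apart, those of AT5G46580 and NAC096 147 bp apart and those of PHB3 and LHT1 1078 bp apart. A protein-coding neighbour with a peak of any label was found for 22 of 256 protein-coding genes with an intergenic 5' peak (8.59%, 5.46 to 12.7%). The share was 6.77% (4.24 to 10.2%) at genes of the other peaks and 4.03% over all nuclear protein-coding genes.

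Single genes also combined labels. CEJ1 had an intergenic 5' peak of 60.33 and a coding 3' peak of 78.8 that lay 423 bp apart. SAUR21 had the same combination, 372 bp apart. These were the 2 loci with an intergenic 5' peak and a peak of another label. The RAP2.4 peak lay 68 bp from an intergenic 3' peak assigned to AT1G78070, and the ERF-1 peak 3554 bp from the coding 3' peak of ERF6. In all, 26 intergenic 5' peaks had a peak of another label as their nearest neighbour within 5 kb.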

How the data were processed

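ChIP-seq peaks of 1 ERF115-HBH library were analysed. The series' design text names the mock as the negative control; the file headers do not say which library the caller used as control. Per the submitters' processing notes, the authors used MACS 1.4.2, Picard, SAMtools 0.1.18, BWA 0.5.9 and CASAVA 1.8.2 on build TAIR10, with parameters and filters that the sources used here do not give. The deposited peak score is the authors' MACS value and was used only within this list. The deposited Z score is the same score standardised over the list and was not used further.

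The 2 deposited files were joined by peak name (612 of 612). Names and gene order came from RefSeq's gene table for TAIR10.1, which held 271 of the 275 peaks' loci; none of its coordinates was used. Coordinates are 1-based. Shares carry 95% exact binomial (Clopper-Pearson) intervals and medians order-statistic intervals, both for counting error only, computed with Python 3.11.15, pandas 2.3.3 and SciPy 1.17.1 and tested on simulated data. No test was run. Gene classes were matched by symbol and synonym. Genes named are those of the 20 highest, 5 lowest, 5 widest and 5 narrowest peaks, with 2 peaks, marked, or in a planned class; others are said to be named after their values were seen. One gene of a planned class is not reported here, and its class is left out of the plot by gene class. Members and lists were chosen with earlier results of these data known. No genome sequence was used, so planned motif and strand descriptions were dropped.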

Additional observations from a re-analysis of the deposited data

How the results depend on the processing

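No paired analysis was possible because both groups consist of a single library, and for the same reason no replicate could be left out. The share of peaks labelled intergenic 5' stayed within its interval at 43.8% among peaks scoring at least 100 and 44.1% in the upper 306 by score, and was 52.9% with 5' UTR labels added. The median score rose to 139.1 and 113.8 under these score thresholds, which by construction keep high scores. Median width (1774 to 1908 bp, including without chromosome 2, a setting chosen after seeing the data), the chromosome 3 share (25.7 to 31.0%) and the marked share (5.93 to 8.33%) stayed within their intervals under the alternatives run. The planned descriptions of promoter motifs and of divergent neighbours, with their alternatives, were not run because neither sequence nor strand was used here. Depth is unknown, so a missing peak may reflect too few reads.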

Other observations

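Several intergenic 5' peaks were assigned to loci that do not encode a protein in the gene name table, named here after their values were seen. The peak of the pseudogene AT5G47225, with a score of 138.02 and a width of 4240 bp, lay 4827 bp from the ERF5 peak on chromosome 5. In gene order the nearest protein-coding gene on the other side of that pseudogene was ERF2, also an AP2/ERF gene, which was assigned no peak. The locus AT1G62301, without an entry in the table, had a score of 139.23, and its peak lay 3478 bp from that of WRKY6, which scored 60.6. The AP2/ERF and WRKY counts do not include these peaks. The tRNA gene AT5G19095 (95.14) and the RNA gene AT2G21188 (136.52) are further examples. Beside AT2G21188 in the runs of peaks stood XCT, a circadian timing gene also named after its value was seen, with 179.34.

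At the low end of the list, the 5 lowest scores belonged to AT4G17080 (50.53), AT5G18990 (50.48), MYB78, PHB3 (50.13) and AT2G32580 (50.01). Genes linked to sugars, picked by hand after their values were seen and not a full set, included the glucose sensor HXK1 (95.09), the galactinol synthase GolS1 (89.39), the invertase INVH (83.92) and TPPD (52.63), a trehalose-phosphate phosphatase.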
